A study of Mus musculus with 30 samples.

Results

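The livers compared here came from male mice of 4 months, fasted overnight, in which the growth hormone receptor had been cut short at amino acid 391 (391), and from mice with the intact receptor (WT). All liver arrays labelled 391 (3) and all liver arrays labelled WT (3) were taken, 6 of the 30 arrays of the series. The other liver groups, with 3 arrays each, carried no receptor (KO), a receptor mutated in its Box1 region (Box1) or a receptor cut short at amino acid 569 (569). Subcutaneous fat of the same 5 genotypes gave the remaining 15 arrays. The labels describe the mutants as transgenic knock-in mice and do not say whether each array is a separate animal. The p-values therefore measure the spread between arrays, pooled over all groups in a fit, which may be technical in part.

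Growth hormone binds its receptor on hepatocytes, and the kinase JAK2, held at the Box1 region, then phosphorylates tyrosines in the receptor tail to which STAT5 docks. Truncation at the shorter length removes these docking sites and leaves Box1 in place. In mouse liver STAT5 drives Igf1 and a set of genes that differ between the sexes, because males release growth hormone in pulses and females release it more evenly.

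The unit is a ratio of each probe to its own median over the 15 liver arrays, so 1 is the usual level of that probe, and levels of different genes cannot be set against each other. Differences are log2 of 391 over WT, from limma on all 15 liver arrays, given with the standard error (SE) and the Benjamini-Hochberg adjusted p over 46643 probes. A probe is called when its adjusted p is under 0.05.

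Before the results, some measurements on the arrays are needed. Of the liver arrays labelled 391, 2 of the 3 held transcripts of the exocrine pancreas. The summed ratio of 25 acinar markers was 24.5, 374.6 and 148.5 in the 391 arrays, against 22.6 to 24.5 in the WT arrays, and 20 and 17 of the 25 markers exceeded a ratio of 2 in 391 replicates 2 and 3 while none did in replicate 1 or in any WT array. Ctrb1, a chymotrypsinogen, read 0.81, 87.46 and 29.55 in 391 livers and 1, 1 and 1.11 in WT livers. The 12 pancreatic islet markers summed to 12.54, 19.88 and 12.45 in 391 arrays, against 11.99 to 12.56 in WT arrays. For 13 adipocyte markers the sums were 17.64, 19.53 and 13.35, against 12.11 to 17.02 in WT arrays. What such tissue adds to the lists below was not tested. Results are therefore also given from replicate 1 of 391 alone. The 391 arrays shared a slide with the KO arrays, and the WT arrays shared another with the 569 arrays, so that slide and genotype cannot be told apart for 391 against WT. For some probes the labels 391 and KO ran opposite ways in the 2 tissues. Gdi2, a regulator of vesicle transport chosen after its values were seen, read 1.26, 1.03 and 1.47 in liver arrays labelled 391 and 0.13, 0.14 and 0.13 in those labelled KO, but 0.15, 0.09 and 0.1 in fat arrays labelled 391 and 1.09, 1.04 and 1 in those labelled KO. The 2 other Gdi2 probes differed by -0.06 and -0.07 between 391 and KO in liver. Between the labels 391 and KO, 84 probes were called in liver and 8 in fat. All 4 probes called in both tissues differed in opposite directions. Of the 84 called in liver, 66 had the opposite sign in fat, and the share over all probes was not computed. Which tissue carries the intended labels cannot be told from these files, so 391 and KO below mean the arrays labelled so, and the KO differences from WT are given with the direct contrasts.

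**Figure D1:**
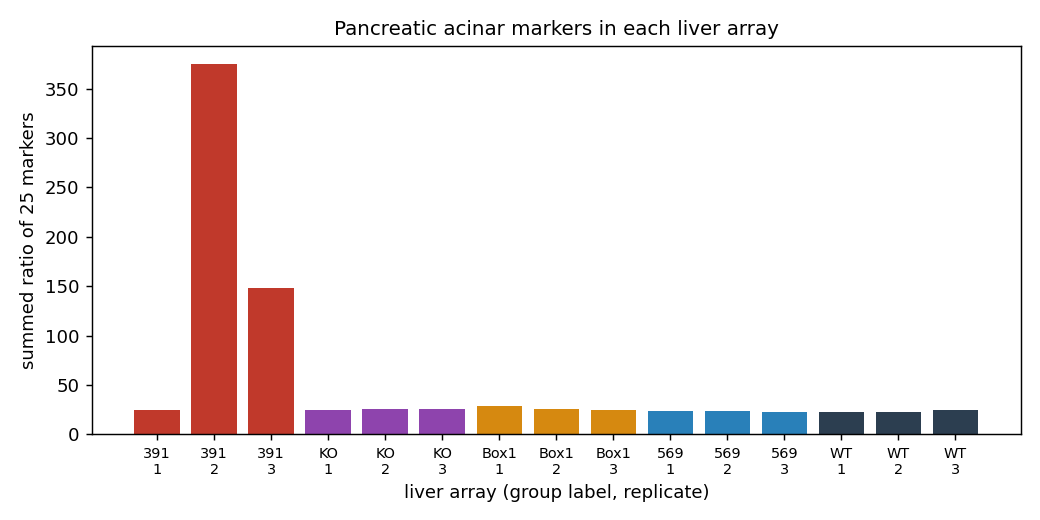
Summed ratio of 25 pancreatic acinar markers (vertical axis, linear from 0) in each of the 15 liver arrays, by label and replicate. The 391 arrays of replicates 2 and 3 stand at 374.6 and 148.5, and the other 13 arrays lie between 22.6 and 28.2.

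**Figure D2:**
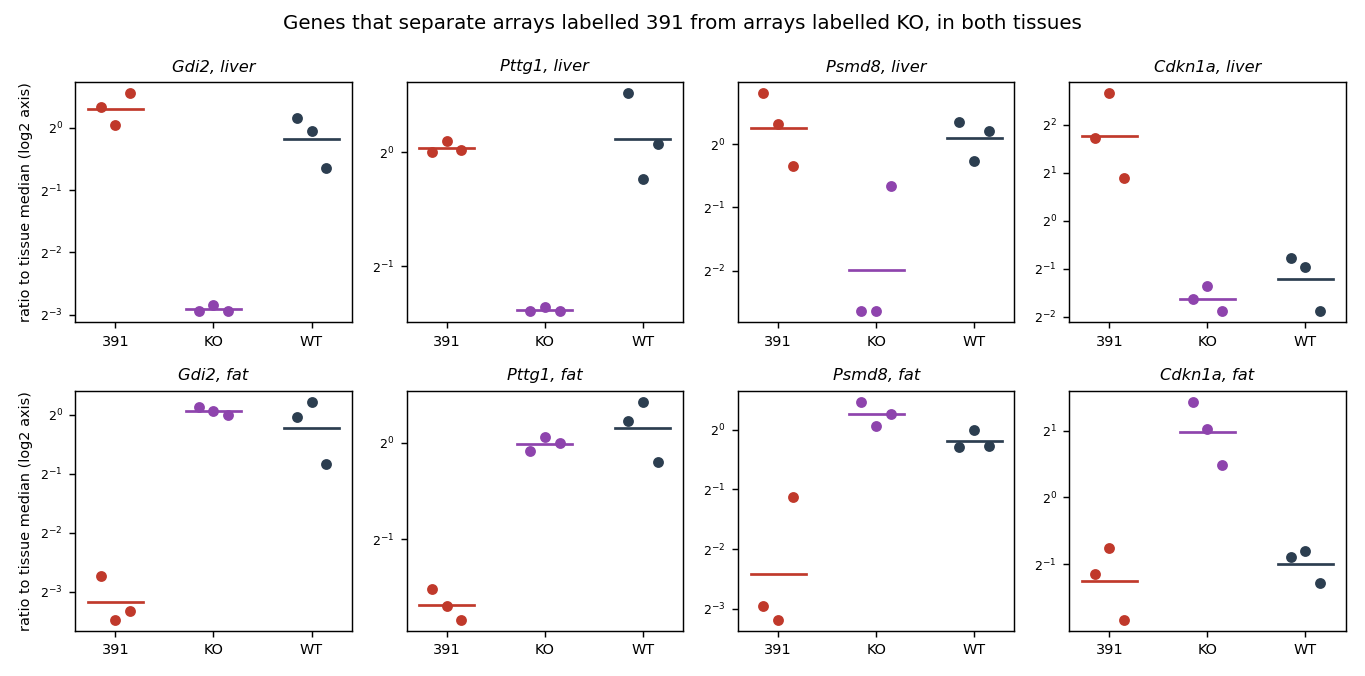
Ratio to the tissue median (log2 axis) of Gdi2, Pttg1, Psmd8 and Cdkn1a in liver (top) and fat (bottom) for the arrays labelled 391, KO and WT. Points are arrays and lines are geometric means of 3 arrays. For all 4 genes drawn the arrays labelled KO lie below those labelled 391 in liver and above them in fat. Gdi2 and Pttg1 are among the probes called in both tissues, and Psmd8 and Cdkn1a are not. Called in both but not drawn were Abca5 (391 minus KO 0.54 in liver, -1.43 in fat) and Thg1l, which ran the other way (-0.70 in liver, 0.97 in fat).

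Of the 46643 probes, 691 were higher in 391 than in WT livers (1.48%) and 199 were lower (0.427%), and 5764 had an unadjusted p under 0.05. With 1 probe per gene, 480 of 19406 genes were higher (2.47%) and 138 lower (0.711%). That probe was the most variable one over the same liver arrays, a choice that favours probes separating the groups. With the mean of all probes of a gene, 471 genes were called in place of 618. At least 4-fold differences were found in 26 of the 138 lower genes and in 23 of the 480 higher ones. The total of 890 probes was 506 without 391 replicate 1, 379 without WT replicate 2 and 401 without WT replicate 3. It was 1302 when 391 was represented by replicate 1 alone, whose spread was then taken from the other groups, with 833 genes higher (4.29%) and 103 lower (0.531%).

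The genes that growth hormone is known to drive were the first question. Igf1, the insulin-like growth factor made by liver, read 0.44, 0.43 and 0.61 in 391 livers, against 20.72, 18.39 and 18.92 in WT livers. The groups were far apart, and the log2 difference was -5.31 ± 0.18 (adjusted p = 1.00e-10), or 39.7-fold lower in 391. A second Igf1 probe differed by -4.14. Igfals, the acid-labile subunit that holds circulating IGF1, read 0.69, 0.82 and 0.67 in 391 livers, against 14.71, 14.27 and 12.01 in WT livers. Its difference was -4.23 ± 0.22 (adjusted p = 2.95e-08). Socs2, a feedback inhibitor of the receptor, read 0.79, 0.83 and 0.57 in 391 livers and 5.85, 2.7 and 10.71 in WT livers, a difference of -2.94 ± 0.43 (adjusted p = 0.0024). The WT arrays of Socs2 spread widely, yet the lowest WT array lay above every 391 array. Its other probes differed by 0.00232 and 0.0313 and were not called. Cish, a second feedback inhibitor, differed by -1.93 ± 0.43 (adjusted p = 0.0325) and lost its call in 5 of the 6 refits that each left out 1 array.

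Of the binding proteins, Igfbp1 and Igfbp2 rose. Igfbp1, which binds IGF1 and rises in fasting, read 6.1, 1.72 and 1 in 391 livers, against 0.22, 0.16 and 0.11 in WT livers, a difference of 3.80 ± 0.81 (adjusted p = 0.0268). Igfbp2 read 1.41, 1 and 1 in 391 livers and 0.45, 0.52 and 0.59 in WT livers, a difference of 1.12 ± 0.24 (adjusted p = 0.0271). Igfbp3 differed by -0.32 ± 0.19 (adjusted p = 0.561) and was not called. Of the 12 measured genes of the IGF system 3 rose and 2 fell, and the remaining riser was Igf2, a fetal growth factor, at 0.55. Ghr itself read 0.68, 0.78 and 1.4 in 391 livers and 1.09, 0.92 and 1.27 in WT livers, with overlapping groups and a difference of -0.26 ± 0.23 (adjusted p = 0.745). Ghr was also not lower in arrays labelled KO (1.51, 1.09 and 1.26), and where the probe lies relative to either mutation is not known here, so it checks no label. The other Ghr probe differed by 0.30, also without a call. Of 24 measured genes of growth hormone signalling, 2 rose and 2 fell. Stat3 (0.86) and Stat5a (0.80), transcription factors of this pathway, were those that rose.

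**Figure D3:**
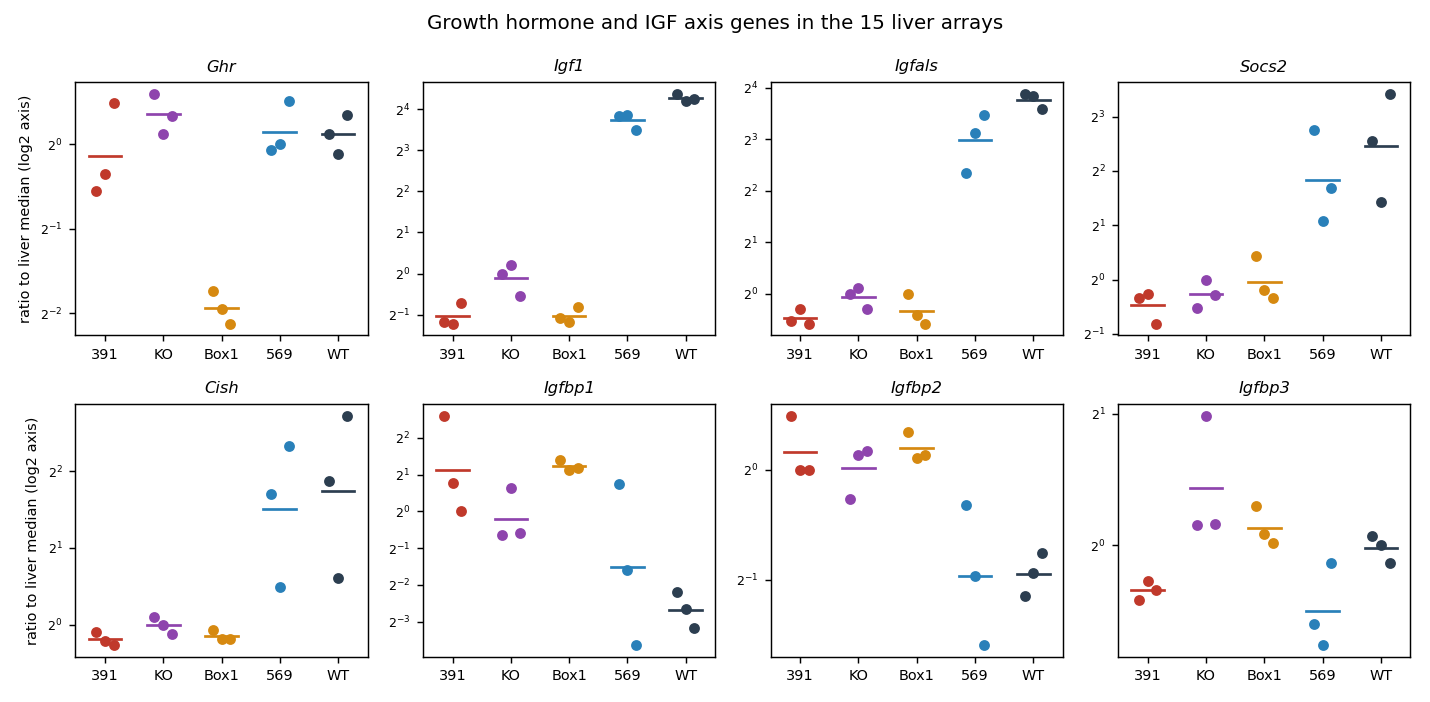
Ratio to the liver median (log2 axis) of the receptor, the IGF genes, their binding proteins and 2 feedback inhibitors in the 15 liver arrays, by label. Points are arrays and lines are geometric means of 3 arrays. For Igf1 and Igfals the arrays labelled 391, KO and Box1 lie near or below 1 and those labelled 569 and WT lie far above.

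Of 28 measured genes known to be higher in male liver, 16 fell and 1 rose, and the list median was -1.94, against 0.04 over all genes. Over all genes 0.711% fell and 2.47% rose, which is the background for this and the lists below. Serpina1e, a secreted alpha-1-antitrypsin, had the lowest difference of any gene. It read 0.73, 0.8 and 0.74 in 391 livers, against 107.1, 109.8 and 111.7 in WT livers, a difference of -7.18 ± 0.16 (adjusted p = 5.27e-13). A second probe for Serpina1e differed by -0.07 and was not called. Cyp4a12a, a fatty acid hydroxylase, read 0.64, 1.32 and 0.74 in 391 livers and 49.2, 44.87 and 83.26 in WT livers, a difference of -6.05 ± 0.32 (adjusted p = 2.95e-08), and its close copy Cyp4a12b differed by -5.58. Mup2, a pheromone carrier, read 0.67, 0.33 and 0.29 in 391 livers and 10.96, 9.89 and 17.75 in WT livers, and Slco1a1, an uptake transporter, read 1, 0.87 and 0.89 in 391 livers and 17.1, 12.93 and 18.44 in WT livers. Their differences were -4.96 ± 0.33 (adjusted p = 4.71e-07) and -4.12 ± 0.16 (adjusted p = 8.26e-10). The other Slco1a1 probe differed by -0.26 and was not called. Elovl3, a fatty acid elongase, differed by -3.09, Cyp7b1, an oxysterol hydroxylase, by -2.92, and Csad, an enzyme of taurine synthesis, by -2.11. Hsd3b5, a steroid reductase, lay at the threshold, with a difference of -2.98 ± 0.72 (adjusted p = 0.0495), and was lost in 5 of the 6 refits. The member that rose was Bcl6, a repressor that opposes STAT5 in liver, by 1.87 ± 0.36 (adjusted p = 0.0141). With replicate 1 of 391 alone, the list median was -1.86.

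Of 38 measured genes known to be higher in female liver, 13 rose and none fell at an adjusted p under 0.05 in the limma fit, and the median was 0.31. Sult2a2, a sulfotransferase of bile acids and steroids, read 1.33, 1.22 and 1.05 in 391 livers, while all 3 WT arrays stood at 0.01, the lowest ratio in the file. With 0.01 taken as 0.015, the top of its rounding interval, it was at least 79.6-fold higher in 391. The limma fit with 0.01 as deposited gave 6.90 ± 0.10 (adjusted p = 1.08e-15). Since all 3 WT arrays of Sult2a2 stand at the lowest ratio, they add no spread, and this SE and p-value may be too small. Its relative Sult2a1 read 1.27, 0.9 and 1.07 in 391 livers and 0.04, 0.05 and 0.04 in WT livers, a difference of 4.63 ± 0.13 (adjusted p = 6.59e-12). Cyp2b13, a P450 enzyme, read 67.35, 31.63 and 46.73 in 391 livers, against 0.66, 0.72 and 0.59 in WT livers, a difference of 6.15 ± 1.17 (adjusted p = 0.0137). In the arrays labelled KO it read 0.78, 0.71 and 77.18, with 1 array far above the others. Because spread is pooled over the 5 liver groups, that array enters the SE of 391 minus WT. Hamp2, a hepcidin, read 1.16, 1.1 and 1.17 in 391 livers and 0.03, 0.03 and 0.01 in WT livers. With 1 WT array at the lowest ratio, its bound was at least 48-fold higher in 391, and the fit with 0.01 as deposited gave 5.78 ± 0.37 (adjusted p = 2.85e-07). Cyp17a1, a steroid lyase, read 2.28, 1.31 and 2.8 in 391 livers and 0.24, 0.13 and 0.21 in WT livers, a difference of 3.44 ± 0.49 (adjusted p = 0.00183). Cyp2a4, a steroid hydroxylase, differed by 2.66, Hao2, a peroxisomal oxidase, by 1.26, and Tox, a nuclear factor, by 1.45. With replicate 1 of 391 alone, the list median was 0.30.

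**Figure D4:**
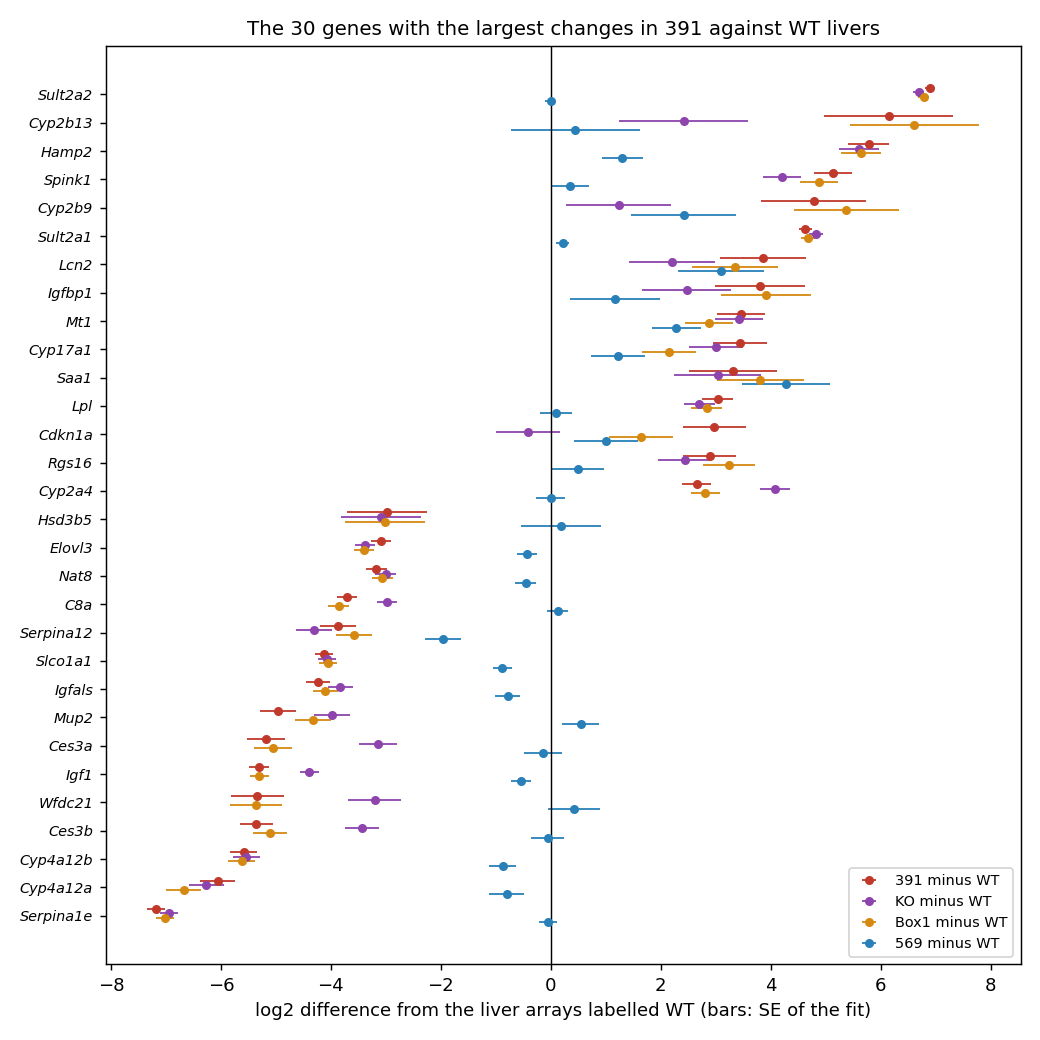
Log2 difference from WT liver, with the SE of the fit, of the 15 genes with the largest rise and the 15 with the largest fall in 391 livers, for the labels 391, KO, Box1 and 569. Sult2a2 and Hamp2 are drawn at the fitted values, with the WT arrays at 0.01 as deposited, above the bounds given for them. The 391, KO and Box1 points mostly lie together, except Cdkn1a, Cyp2b13 and Cyp2b9, and those of 569 mostly lie near 0.

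Of 15 carboxylesterases, which split esters and lipids, 3 fell. Ces3b read 0.19, 0.28 and 0.31 in 391 livers and 10.84, 8.57 and 12.17 in WT livers, a difference of -5.36 ± 0.31 (adjusted p = 8.61e-08), and Ces3a differed by -5.18. Of 45 P450 enzymes of families 1 to 3, 5 rose and 3 fell. Cyp2c54 (-2.28) and Cyp2f2 (-0.95) were among those that fell. In the bile acid list, Cyp39a1, an oxysterol hydroxylase, rose by 1.83 and Slc51b, a bile acid exporter, by 0.87, while Cyp7b1 fell. Of 30 glutathione enzymes, 5 rose and 1 fell. Gstt3 (2.04) and Gsta4 (1.01), glutathione transferases, rose, although the other Gstt3 probe differed by 0.04 without a call, and Gstp1 (-1.24), another transferase, fell. Among 25 organic ion transporters Slco1a4, an uptake transporter related to Slco1a1, rose by 2.08 while Slco1a1, Slc22a30 (-1.71) and Slco2a1 (-0.75), a prostaglandin transporter, fell. Copies of near-identical families (Cyp4a12, Cyp2a, Cyp2b, Sult2a, Ces3, Mup and Serpina1) may share a probe, and which copy was measured is uncertain.

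Of the complement list, 5 fell and none was called higher among 24 measured, with all 3 arrays of 391. C4b was not called at 0.89, and it differed by 2.15 with replicate 1 of 391 alone. Its other probes differed by 0.10, 0.20 and -0.23 with all arrays. The 24 include Olfr48, an olfactory receptor gene entered through a shared synonym, and hold no entry for C3. C8a, a subunit of the membrane attack complex, read 0.5, 0.77 and 0.73 in 391 livers, against 9.06, 7.42 and 9.28 in WT livers, a difference of -3.71 ± 0.18 (adjusted p = 1.55e-08). C6 (-2.80), C8b (-2.43) and C9 (-1.58), parts of the same complex, and Mbl1 (-0.89), a mannose-binding lectin, fell as well. The other C6 probe differed by -0.000595 and was not called. Clotting factor F11 (-1.23) and Klkb1 (-1.09), a plasma kallikrein, fell among 24 coagulation genes. Of 27 genes in the acute phase list, which also held Olfr48 and no C3, 7 rose. The list median was 0.39 in 391 and 0.41 in 569, each minus WT, although no member was called in 569. Lcn2, an iron-scavenging lipocalin, read 3.64, 6.22 and 0.62 in 391 livers and 0.17, 0.16 and 0.17 in WT livers, a difference of 3.86 ± 0.78 (adjusted p = 0.0201) with a wide spread in 391. Saa1, serum amyloid A, read 1.36, 2.07 and 0.22 in 391 livers and 0.08, 0.06 and 0.13 in WT livers, a difference of 3.32 ± 0.80 (adjusted p = 0.0469). In 569 livers Saa1 read 2.57, 2.66 and 0.67, and its 569 minus WT difference was 4.28. Among 15 serpins of clade A, 2 rose and 3 fell. Serpina12, the adipokine vaspin, read 0.97, 1 and 0.5 in 391 livers and 10.07, 10 and 15.2 in WT livers, a difference of -3.88 ± 0.33 (adjusted p = 9.71e-06), while Serpina3n (1.78), an acute phase inhibitor, and Serpina7 (1.82), which carries thyroid hormone, rose. The other Serpina12 probe differed by -0.34 and was not called. The metal-binding Mt1 and Mt2 differed by 3.46 and 2.59.

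Of 41 genes that take up fatty acids or build lipid droplets, 5 rose and none fell at an adjusted p under 0.05, with a median of 0.36. Lpl, the lipase that frees fatty acids from lipoproteins, read 1.03, 1.3 and 2.1 in 391 livers and 0.19, 0.19 and 0.14 in WT livers, a difference of 3.04 ± 0.28 (adjusted p = 2.70e-05). Vldlr, a lipoprotein receptor, read 1, 0.86 and 1.25 in 391 livers and 0.41, 0.21 and 0.15 in WT livers, a difference of 2.13 ± 0.26 (adjusted p = 0.000485). Pparg (1.01), a nuclear receptor of fat storage, Lpin1 (1.93) and Agpat2 (0.66), enzymes of glyceride synthesis, rose too. The other probes of Lpl differed by -0.02 and 0.06, and those of Pparg by 0.29 and -0.10, all without a call. Of the 4 other Vldlr probes 1 was called, at 1.24. With replicate 1 of 391 alone, the median of the 41 was 0.42. Of 40 genes of fatty acid oxidation and ketogenesis none was called in either direction (7 higher and 1 lower at an unadjusted p under 0.05). Their median was 0.18, or 0.41 with replicate 1 of 391 alone.

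Smaller, broader differences were seen in genes of energy metabolism. For scale, the median over all genes was 0.04, and the share of all genes above 0 was not computed. Of 72 subunits of oxidative phosphorylation, 12 rose and none fell, and 71 of 72 were above 0. The list median was 0.33 in 391, 0.32 in KO and 0.37 in Box1, each minus WT. Ndufa8 (0.82), a subunit of complex I, and Atp5g2 (0.61), of ATP synthase, were among the subunits that rose in 391. With replicate 1 of 391 alone the list median was 0.58. Of 41 genes of the urea cycle and amino acid breakdown, 9 rose and 2 fell, and the median was 0.48. Ass1, which makes argininosuccinate, read 2.09, 1.89 and 1.24 in 391 livers and 0.69, 0.63 and 0.49 in WT livers, a difference of 1.51 ± 0.29 (adjusted p = 0.014). Kyat1 and Kyat3, kynurenine aminotransferases, fell by 1.95 and 1.63 on the log2 scale. Of 20 genes of sulfur amino acids, 2 rose and Csad fell. Bhmt, which returns homocysteine to methionine, read 2.18, 1.31 and 1.35 in 391 livers and 0.87, 0.2 and 0.64 in WT livers, a difference of 1.71 ± 0.41 (adjusted p = 0.0485). Gluconeogenesis genes included Slc37a4 (1.08), which carries glucose 6-phosphate, and Gpt (0.82), an alanine aminotransferase, and 4 of 27 rose. Their median was 0.45, or 0.84 with replicate 1 of 391 alone.

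Cdkn1a, an inhibitor of the cell cycle, read 3.33, 6.33 and 1.85 in 391 livers, against 0.58, 0.51 and 0.27 in WT livers, a difference of 2.98 ± 0.58 (adjusted p = 0.0147). The Cdkn1a call was lost without WT replicate 3 (adjusted p = 0.0787). Arrays labelled KO read 0.32, 0.39 and 0.27, with a difference from WT of -0.41. Spink1, an inhibitor of trypsin that is also an acinar marker, read 1.03, 3.11 and 1.37 in 391 livers, against 0.05, 0.05 and 0.04 in WT livers. It was already 1.03 in the 391 array without pancreatic transcripts, and its difference was 5.14, or 4.47 with that array alone. KO minus WT was 4.20. Of the 25 acinar markers 2 were called higher, Spink1 and Amy2a5, a pancreatic amylase that differed by 1.08. 

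Marker genes of liver cell types were compared as well. In whole tissue fewer cells of a type and less RNA per cell cannot be told apart. The summed ratio of 22 hepatocyte markers was 22.7 to 26.8 in 391 livers and 19.4 to 21.2 in WT livers, and 3 markers rose and 1 fell. For 21 endothelial markers the sums were 21.5 to 27 in 391 livers and 18.3 to 22.4 in WT livers, with 3 that rose, and for 19 stellate and fibroblast markers 21.9 to 24.1 in 391 livers and 17.1 to 18.4 in WT livers, with 2. With replicate 1 of 391 alone, the list medians moved from 0.18 to 0.26 for hepatocyte and from 0.15 to 0.32 for endothelial markers. For stellate and fibroblast markers the median moved from 0.33 to 0.15. The 30 macrophage and leukocyte markers summed to 30.3 to 34.1 in 391 livers and 28.2 to 29.7 in WT livers, with none called (4 higher and 0 lower at an unadjusted p under 0.05). Their part in the gene lists above was not tested. Of the remaining lists, cytosolic ribosomal proteins held 5 of 69 that rose. No member of the 19 apolipoproteins, the 19 clock genes or the 34 proteasome subunits was called in the limma fit. At an unadjusted p under 0.05, 5, 3 and 5 of them were higher. Their list medians were 0.24, 0.195 and 0.19, or 0.30, 0.22 and 0.47 with replicate 1 of 391 alone.

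Several of the calls above were lost when 1 array was left out of the limma fit. Without 391 replicate 1 the calls of Agpat2, Ass1, Bcl6, Bhmt, Cish, Cyp2b13, Cyp2b9, F11, Hsd3b5, Igfbp1, Igfbp2, Klkb1, Lcn2, Lpin1, Saa1, Serpina7, Slco1a4, Stat5a and Tox were lost (adjusted p 0.05 to 0.173). Leaving out 391 replicate 2 removed those of Agpat2, Bhmt, Cish, F11, Gsta4, Hsd3b5, Igf2, Klkb1, Lcn2, Lpin1, Saa1, Serpina7, Slco1a4 and Slco2a1 (adjusted p 0.055 to 0.146). Without 391 replicate 3 the calls of Bhmt, Cish, Gsta4, Hsd3b5, Slco1a4, Slco2a1 and Stat5a were lost (adjusted p 0.0529 to 0.0825). Leaving out WT replicate 1 removed those of Cish, F11, Igf2, Igfbp2, Klkb1, Lpin1, Saa1 and Slco2a1 (adjusted p 0.0515 to 0.0952). Without WT replicate 2 the calls of Agpat2, Bhmt, Cyp2b13, Cyp2b9, Gsta4, Gstp1, Hsd3b5, Igf2, Igfbp1, Igfbp2, Klkb1, Kyat3, Lcn2, Lpin1, Saa1, Serpina7, Slc22a30, Slc37a4, Slco1a4 and Tox were lost (adjusted p 0.0511 to 0.181). Leaving out WT replicate 3 removed those of Agpat2, Ass1, Bcl6, Bhmt, Cdkn1a, Cish, Cyp2b13, Cyp2b9, F11, Gsta4, Gstp1, Hsd3b5, Igf2, Igfbp1, Igfbp2, Klkb1, Kyat3, Lcn2, Saa1, Serpina7, Slc22a30, Slc37a4, Slco1a4, Slco2a1 and Stat5a (adjusted p 0.0565 to 0.211). With replicate 1 of 391 alone, Agpat2, Bhmt, Cdkn1a, Cish, Cyp2b13, Cyp2b9, Cyp2f2, Gsta4, Gstp1, Hsd3b5, Igf2, Kyat3, Mt2, Slc22a30, Slc37a4, Slc51b, Slco1a4, Slco2a1 and Stat5a were no longer called (adjusted p 0.0515 to 0.281). Among the genes given above, Amy2a5, Atp5g2, C6, C8a, C8b, C9, Ces3a, Ces3b, Csad, Cyp17a1, Cyp2a4, Cyp2c54, Cyp2f2, Cyp39a1, Cyp4a12a, Cyp4a12b, Cyp7b1, Elovl3, Gpt, Gstt3, Hamp2, Hao2, Igf1, Igfals, Kyat1, Lpl, Mbl1, Mt1, Mt2, Mup2, Ndufa8, Pparg, Serpina12, Serpina1e, Serpina3n, Slc51b, Slco1a1, Socs2, Spink1, Stat3, Sult2a1, Sult2a2 and Vldlr remained called in all 6 refits.

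Counted by list, members called in all 6 refits were 13 of 17 called male-biased genes, 8 of 13 female-biased genes, 5 of 5 complement proteins, 5 of 7 acute phase genes and 3 of 5 lipid uptake genes. They were 3 of 12 oxidative phosphorylation subunits, 2 of 11 urea cycle and amino acid genes, 1 of 4 gluconeogenesis genes, 1 of 6 glutathione enzymes and 0 of 5 ribosomal proteins. The called hepatocyte (0 of 4), endothelial (0 of 3) and stellate and fibroblast markers (0 of 2) each lost their call in at least 1 refit.

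For other named genes, too, probes disagreed. The second probe was not called for Agpat2 (0.22), Amy2a5 (-0.22), Bhmt (0.74) and Serpina7 (1.32). The 2 other probes of Kyat1 (-0.35 and -0.11) and of Lpin1 (-0.10 and 0.25) were not called either. Of the 2 other probes of Gstp1, Slc22a30, Slco1a4 and Slco2a1, 1 each was called in the same direction, and the uncalled ones differed by -0.54, -0.19, 0.21 and -0.21.

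**Figure D5:**
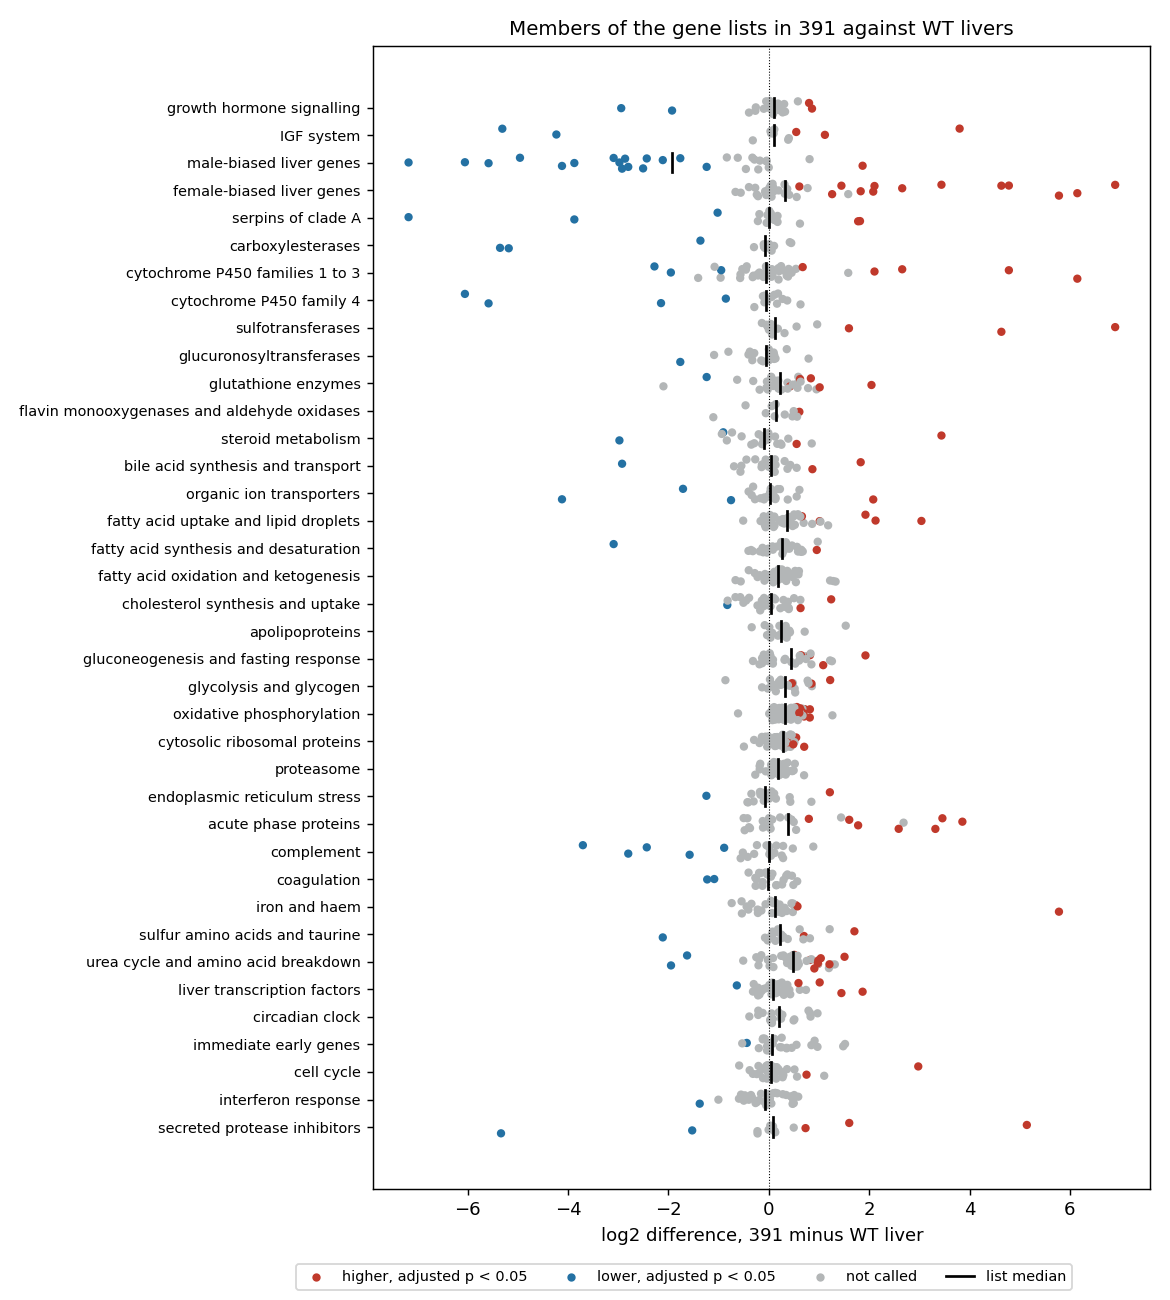
Log2 difference, 391 minus WT, of every measured member of 38 gene lists, with the list median as a vertical line. Called members are coloured. Male-biased genes lie to the left with a median of -1.94, and called female-biased genes lie to the right.

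The next question was how the 391 livers stand beside those labelled KO, Box1 and 569. Each contrast of these with WT shares the WT arrays with 391 minus WT, so the values are given side by side only. For Igf1 the differences from WT were -5.31 in 391, -4.39 in KO, -5.30 in Box1 and -0.55 in 569. For Serpina1e they were -7.18, -6.94, -7.02 and -0.05 in the same order. For Igfals, Mup2, Slco1a1 and C8a the 391 differences were -4.23, -4.96, -4.12 and -3.71, and those of KO were -3.83, -3.98, -4.07 and -2.98. Of the genes that rose, Sult2a1 and Lpl differed from WT by 4.63 and 3.04 in 391 and by 4.82 and 2.70 in KO, Hamp2 by at least 5.58 in 391 and at least 5.41 in KO, and Igfbp1 by 3.80 in 391 and 2.47 in KO. Direct contrasts called 84 probes between 391 and KO (0.18%), 2 between 391 and Box1 (0.00429%) and 2190 between 391 and 569 (4.7%). The 391 and KO arrays share a slide, as do the 569 and WT arrays, between which 4 probes were called. The 2 probes called against Box1 included Ghr, which read 0.68, 0.78 and 1.4 in 391 and 0.3, 0.26 and 0.23 in Box1 livers, a difference of 1.79 ± 0.23 (adjusted p = 0.0282). That call was lost under 10 of 21 other settings and arrays left out, with an adjusted p up to 0.263 without Box1 replicate 2 and 0.183 with replicate 1 of 391 alone. Leaving out 391 replicate 2, 569 replicate 2, KO replicate 3, WT replicate 1 or any Box1 array removed it. Of the genes that differed between 391 and KO, A1cf, an RNA editing cofactor, differed by 2.46 ± 0.16 (adjusted p = 2.90e-06), Cdkn1a by 3.39 ± 0.58 (adjusted p = 0.029) and Ces3b by -1.92 ± 0.31 (adjusted p = 0.0237). Hao2, lower in 391 than in KO, differed by -1.02 ± 0.17 (adjusted p = 0.0241). The other Cdkn1a probe differed by 3.09 (adjusted p = 0.0561) and the other Ces3b probe by -0.16, and neither was called between 391 and KO. A1cf was called under all 22 other settings and arrays left out, while Cdkn1a was lost under 7 (adjusted p up to 0.142), Ces3b under 6 (up to 0.139) and Hao2 under 6 (up to 0.119). Each of these 3 was lost without 391 replicate 1, 391 replicate 2, KO replicate 1 or KO replicate 3, and Cdkn1a also without KO replicate 2.

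The liver difference was then tested against the fat difference, with the 391 labels as deposited in both. It called 106 probes (0.227%), among them Igf1, whose 391 minus WT difference was -5.31 in liver and -1.17 in fat. Its liver minus fat value was -4.14 ± 0.77 (adjusted p = 0.013). With the fat arrays labelled KO in place of those labelled 391, it was -3.96 (adjusted p = 0.0222), and the count was 103. Igf1 was not called in this test with replicate 1 of 391 liver alone (adjusted p = 0.0974).

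Promoter sequence was looked at because STAT5 binds sites of the form TTCNNNGAA. The motif reads the same on both strands, and 2306 of 32851 RefSeq windows of 250 bases before a gene start (GRCm38.p6) hold it, 7.02%. Counted by gene, 8.13% of 27025 genes hold it, as do 8 of 112 genes called lower with a window (7.14%) and 23 of 377 called higher (6.1%). These shares are a description with no test. Igfals, a growth hormone target that fell, has 3 such windows, of which 2 hold the motif. A window of Igfals and that of Hamp2, which rose, were picked because they hold it, so they are not typical of called genes. The motif is in capitals (Igfals on the + strand at chr17:24877981-24878230, Hamp2 on the - strand at chr7:30924182-30924431).
Igfals: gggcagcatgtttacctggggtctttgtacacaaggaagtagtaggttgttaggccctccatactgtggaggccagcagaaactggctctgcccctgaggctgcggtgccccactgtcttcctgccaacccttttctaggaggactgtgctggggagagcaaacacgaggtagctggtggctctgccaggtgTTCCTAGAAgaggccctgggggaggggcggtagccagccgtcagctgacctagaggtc
Hamp2: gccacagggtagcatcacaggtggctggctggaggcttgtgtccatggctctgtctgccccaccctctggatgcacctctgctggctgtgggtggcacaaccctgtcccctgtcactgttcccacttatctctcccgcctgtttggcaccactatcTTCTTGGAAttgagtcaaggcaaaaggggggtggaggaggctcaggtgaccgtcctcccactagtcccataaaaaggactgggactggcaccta
The motif starts at position -58 from the gene start in the Igfals window shown and at -94 in Hamp2. No motif lies in the windows of Igf1, Cish, Serpina1e, Mup2, Slco1a1, Ces3b, Cyp2b13 and Cyp2a4, which says only that these letters are absent there. Windows of C8a and Bcl6 also hold it.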

How the data were processed

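The deposited table holds a ratio for each of 46643 probes on each array. The authors made each ratio by dividing a probe by its median over the 15 arrays of a tissue, as read from the values: the liver median was exactly 1 for all 46643 probes. Per the labels' protocols, total RNA from frozen tissue was biotin-labelled and run on Illumina arrays. For the software, background correction and normalization, the sources used here say nothing. Array medians lay between 0.98 and 1.01, the ratios between 0.01 and 168.6, and signal over background is unknown, so 3 arrays per group limit the precision.

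The authors' deposited ratios were transformed to log2 and fitted with limma 3.58.1 in R 4.3.3, with the 5 genotypes in 1 two-sided fit over the 15 liver arrays and Benjamini-Hochberg adjustment over all probes. The contrast between tissues used all 30 arrays. The fit was also run on simulated data with independent noise for each probe. Those data held no slide effect, no arrays with pancreatic transcripts and no lowest ratio, so that run checks the code only. The platform annotation named 32794 probes with 1 symbol, 55 with several and 13794 with none, giving 19406 genes, and 32722 named probes matched the RefSeq table (GRCm38.p6). A gene with several probes is represented by the one that varied most (by SD) across liver arrays, and other probes are given where they disagree. The same arrays served for this choice and for the test, so gene and list counts may be too high. It concerns 8202 genes with more than 1 probe. Probe sequences were not used here.

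The genes, comparisons and 48 lists were chosen with earlier results of these data known. The text names 8 axis genes, up to 15 called genes each way whose arrays do not overlap, up to 6 members of each list with called ones first, up to 5 each way in the other contrasts, and pancreatic markers. Gdi2, Pttg1 and Psmd8 were chosen after their values were seen. Each slide held 6 arrays. Alternatives were other normalization, offsets, filters, array weights, robust fits, fewer arrays, and each array left out. The fat arrays labelled KO in place of 391, and list medians without the pancreatic arrays, were added after seeing the data.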

Additional observations from a re-analysis of the deposited data

Results flagged for a closer look

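The 391 minus WT difference in liver differed from that in fat for 12 genes named here, by the interaction term of the limma fit. The values below are liver minus fat on the log2 scale, with the value for fat arrays labelled KO in place of 391 after each. Larger rises in liver were found for Spink1 (5.49, 5.32), Sult2a1 (4.80, 4.70) and Cyp17a1 (3.58, 3.46). Sult2a2 and Hamp2 have WT liver arrays at the lowest ratio of 0.01. Their fitted values with 0.01 as deposited were 7.57 and 6.96, and with 0.01 taken as 0.015 their bounds were at least 6.98 and 6.76. Larger falls in liver were found for Serpina1e (-5.96, -5.90), Cyp4a12a (-5.51, -5.56), Ces3a (-5.44, -5.06), Cyp4a12b (-5.43, -5.45), Ces3b (-5.28, -5.14), Igf1 (-4.14, -3.96) and Igfals (-2.83, -2.21). All 12 had an adjusted p under 0.05 with either label in fat. Using 391 replicate 1 alone for liver, Cyp17a1 (0.0817), Hamp2 (0.104) and Igf1 (0.0974) missed the threshold (adjusted p in brackets), and Cyp17a1 also did without 391 replicate 3 (0.0523) or WT replicate 2 (0.0658). In fat alone, 391 minus WT was called only for Igfals among these, at -1.40 (adjusted p = 0.0298). Each ratio is relative to the median of its own tissue, so a gene that fat does not express would also read near 1 there.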

How the results depend on the processing

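The 890 probes called in 391 against WT became 230 when at least a 2-fold difference was also asked for and 260 with the 6 arrays of 391 and WT alone, and ranged from 379 to 980 when 1 array was left out. Quantile normalization gave 830, and the other planned settings that kept all 3 arrays of 391 and of WT gave 861 to 885. Against KO, the 84 probes became 173 without both 391 arrays that hold pancreatic transcripts and 35 with the 6 arrays of 391 and KO alone, and ranged from 27 to 271 with 1 array left out, the highest without 391 replicate 3. Against 569, 2190 ranged from 698 to 2451, and quantile normalization gave 807 higher and 214 lower in place of 2010 and 180. Against Box1, 2 became 1 without both pancreatic arrays and ranged from 1 to 52, the highest without 391 replicate 1. The liver against fat count of 106 ranged from 81 to 115. Of the 142 named genes called, none reversed under any setting. With the 6 arrays alone 77 lost their call, without 391 replicate 1 56, without WT replicate 3 71, and with the mean of all probes of a gene 25. No paired analysis was possible because replicate numbers were given in accession order and pair nothing. A slide block could not be fitted for 391 against WT. Signal over background is unknown, so a steady low probe cannot be told from an absent transcript.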
